A study of Mus musculus with 15 samples.

Results

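Liver RNA of mice given myricetin was compared with liver RNA of mice given kaempferol, in 3 libraries each, which are 6 of the 15 libraries sequenced. The 6 libraries were chosen by their labels alone. The myricetin group (libraries 5, 7 and 8) received 75 mg/kg/day and the kaempferol group (libraries 3, 5 and 8) received 100 mg/kg/day, both by oral gavage, on a high-fat diet for 6 weeks. A quercetin group at 200 mg/kg/day on such a diet, a model group on the high-fat diet without flavonoid, and a control group on standard feed (3 libraries each) give context. The model feed was made of 78.8% standard feed with 1% cholesterol, 0.2% sodium cholate, and lard and egg yolk powder at 10% each, per the labels, and the labels do not repeat this composition for the flavonoid groups. The genotype of every group was WT. The labels give no strain, sex, age, hour of collection or fasting state, and do not say whether model and control mice were gavaged or whether each library is from a different mouse. The p-values below therefore measure the spread between libraries. Because the groups differ in compound and in dose, the parts of compound and dose cannot be told apart.

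Myricetin and kaempferol are plant flavonols with the same core, and myricetin carries more hydroxyl groups on its B ring than kaempferol. The liver takes up dietary cholesterol and fat, makes bile acids and lipoproteins, stores surplus lipid in droplets, and secretes most acute phase proteins of the blood. Its metabolic genes are also under a daily clock, a feedback loop in which BMAL1 (Arntl) and CLOCK or NPAS2 switch on Per, Cry, Nr1d1, Nr1d2, Dbp and Tef, whose products then act back on the loop or on its outputs.

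The counts held 15853767 to 17576502 reads in the myricetin libraries and 16941496 to 17419026 reads in the kaempferol libraries, with 14624 to 14929 genes having a count. Albumin took 4.64% to 5.24% of the counts in the myricetin libraries and 4.28% to 6.66% in the kaempferol libraries. The 21 hepatocyte markers in the table summed to 102249, 98637 and 115805 CPM in the myricetin libraries and to 98448, 128167 and 121993 CPM in the kaempferol libraries. Over all genes, the 2 libraries most alike were myricetin 5 and kaempferol 3, with a root mean square difference of 0.409 on the log2 scale, and the 2 least alike were myricetin 8 and kaempferol 8, at 0.556. Kaempferol 8 stood apart from the other kaempferol libraries in macrophage and B cell markers, so results on those markers are given with and without it.

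Of 12658 genes tested for this 1 pair of groups, 0 (0%) differed between myricetin and kaempferol at an adjusted p under 0.05 (edgeR's quasi-likelihood test, Benjamini-Hochberg adjustment). At an unadjusted p under 0.05 there were 925 genes (7.31%), of which 335 genes (2.65%) were higher with myricetin and 590 (4.66%) were lower. With 1 library left out, the genes at that p numbered 200 to 477 higher and 406 to 815 lower. The shares of all genes set beside list counts below are from the fit of all libraries. DESeq2 on the 12658 genes called 36, of which 19 were higher with myricetin and 17 lower. The edgeR count was 13 without kaempferol library 8, 2 without myricetin library 5 and 0 without any other of the 6 libraries. The lowest edgeR adjusted p was 0.0713 and was shared by 5 genes, Dbp, Nr1d1, Rbm3, Carmil1 and Saa3. The median log2 fold change over all genes was -0.003, and the median 95% interval of a gene reached 0.34 to either side. Throughout, a fold change is myricetin over kaempferol unless another pair is named, an error after ± is a standard error for a fold change and an SD for a level, and levels are CPM, which scale each count to the same library total.

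Clock genes had the highest median of the 42 gene lists with at least 5 members tested, although 0 of them passed the edgeR test. Of the 20 clock genes listed, all of which were tested, 9 were higher and 5 lower with myricetin at an unadjusted p under 0.05, against 2.65% and 4.66% of all genes. Without overlap of the libraries, 9 were also higher and 5 lower, against 5.15% and 5.29% of all genes. The median log2 fold change of the 20 was 0.70, and it was 0.44 without myricetin library 8 and 1.06 without kaempferol library 8. DESeq2 called 8 of the 20, against 36 of all 12658 genes. The 8 included Bhlhe41, Cry1, Dbp, Nr1d1, Nr1d2, Per3 and Tef.

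Dbp, a transcription factor that drives daily output genes of the liver (chromosome 7, 45705100 to 45710203, plus strand, GRCm38.p6), had 5.55, 19.8 and 25.2 CPM in myricetin libraries 5, 7 and 8, against 1.49, 1.27 and 1.99 CPM in kaempferol libraries 3, 5 and 8. The groups did not overlap, and myricetin library 5 lay nearest to kaempferol. The log2 fold change was 3.40 ± 0.49 with an edgeR adjusted p of 0.0713 and a 95% interval of 2.33 to 4.46. Without myricetin library 5 the edgeR adjusted p was 5.50e-08. Over the edgeR alternatives it ran from 5.50e-08 to 1.00, and it was at most 0.365 when 1 library was left out. The DESeq2 adjusted p was 2.23e-09. Quercetin libraries held 126 to 163 CPM and model libraries 2.20 to 3.03 CPM, so myricetin stood between quercetin and model while kaempferol lay below the model range.

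Nr1d1 encodes REV-ERB alpha, a repressor of Arntl and of lipid genes (chromosome 11, 98767932 to 98775377, minus strand). Its level was 73.3, 134 and 84.1 CPM with myricetin and 17.9, 14.1 and 24.1 CPM with kaempferol. Every myricetin library exceeded every kaempferol library, with a log2 fold change of 2.38 ± 0.36 (edgeR adjusted p = 0.0713). Its paralog Nr1d2 had 39.8, 75.2 and 51.2 CPM with myricetin and 19.2, 17.8 and 25.0 CPM with kaempferol, again without overlap, and its log2 fold change was 1.42 ± 0.28 (edgeR adjusted p = 0.197). Tef, which binds the same sites as Dbp, had 55.0, 102 and 85.4 CPM with myricetin and 28.9, 34.8 and 41.2 CPM with kaempferol. Here too the ranges were separate, at a log2 fold change of 1.21 ± 0.25 (edgeR adjusted p = 0.209). The repressors Per3, Bhlhe41 and Bhlhe40 had log2 fold changes of 1.55 ± 0.38, 1.71 ± 0.39 and 1.18 ± 0.36, with edgeR adjusted p-values of 0.341, 0.210 and 0.549. Per3 and Bhlhe41 were separate between the groups, and Bhlhe40 overlapped. Bhlhe41 was low, at 1.14, 1.93 and 2.70 CPM with myricetin and 0.609, 0.637 and 0.511 CPM with kaempferol.

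Some other clock genes lay the opposite way. Cry1, a repressor late in the loop, had 17.8, 13.4 and 10.2 CPM with myricetin and 22.9, 25.6 and 29.8 CPM with kaempferol, a log2 fold change of -0.92 ± 0.22 (edgeR adjusted p = 0.281). Arntl had 23.2, 16.3 and 12.9 CPM with myricetin and 28.8, 28.6 and 23.6 CPM with kaempferol. Its ranges nearly met at myricetin library 5, and the log2 fold change was -0.63 ± 0.23 (edgeR adjusted p = 0.574). Npas2 (-1.90) and Nfil3 (-0.60), a repressor at the sites of Dbp, were also below kaempferol in each myricetin library, with edgeR adjusted p-values of 0.574 and 0.549. Per1 and Per2 had log2 fold changes of 1.48 ± 0.80 and 1.01 ± 0.51, and Per2 was separate between the groups while Per1 overlapped at 4.29, 10.3 and 24.2 CPM with myricetin and 2.71, 0.955 and 10.0 CPM with kaempferol. Cry2 and Hlf, at 0.39 ± 0.14 and 0.32 ± 0.14, were separate between the groups by a small margin. Outside the naming rule, and named to describe more of the list, were Ciart at 1.26, Usp2 at 0.35, Rora at 0.09 and Clock at -0.11, with edgeR adjusted p-values of 0.786, 0.962, 0.944 and 0.942.

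**Figure D1:**
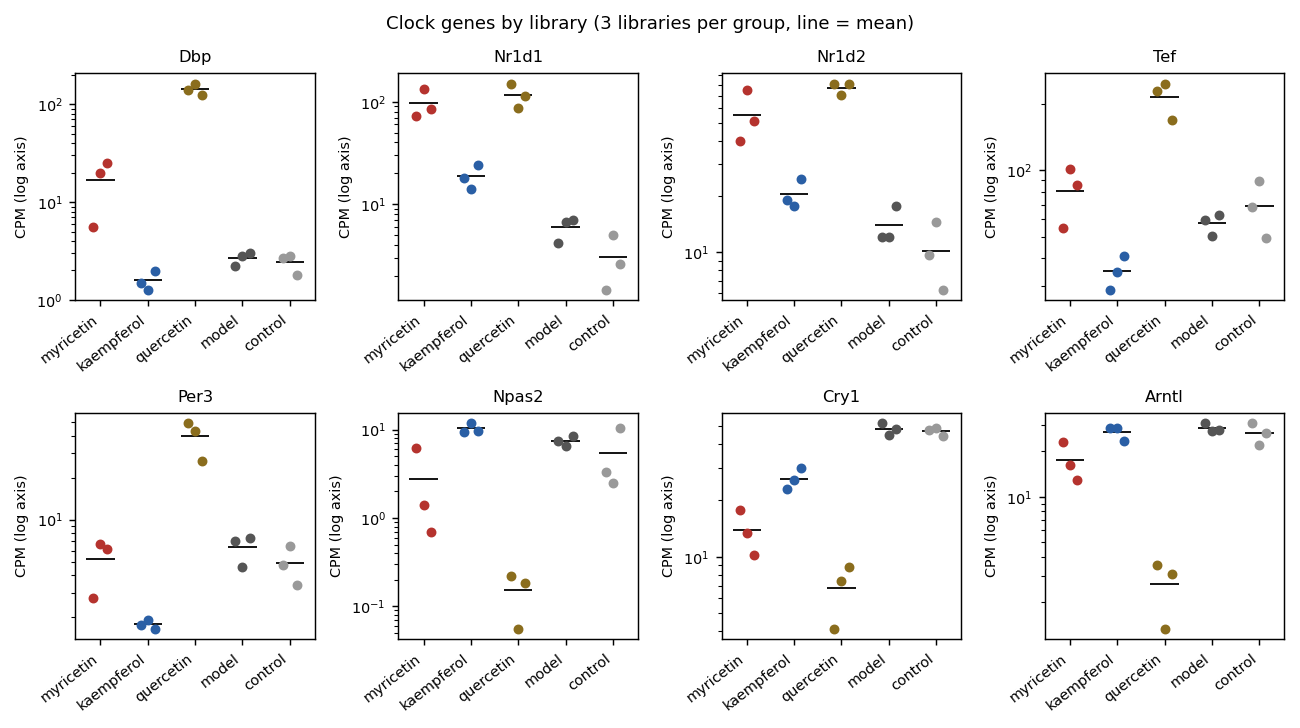
CPM of 8 clock genes on a log axis in each of the 15 libraries, by group, with a line at the group mean. Dbp, Nr1d1, Nr1d2, Tef and Per3 lie higher in the 3 myricetin libraries than in the 3 kaempferol libraries, and Npas2, Cry1 and Arntl lie lower. Every quercetin library is further from kaempferol than every myricetin library for Dbp, Tef, Per3, Npas2, Cry1 and Arntl.

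Against the model, the same fit gave separate values for each flavonol, from contrasts that share the model libraries. It called 50 genes (0.395%) for myricetin against model and 5 (0.0395%) for kaempferol against model at an edgeR adjusted p under 0.05. Nr1d1 was higher with myricetin than in the model by 4.03 ± 0.40 on the log2 scale (edgeR adjusted p = 0.00173), and with kaempferol the value was 1.65 ± 0.39 (edgeR adjusted p = 0.133). Dbp stood at 2.65 ± 0.45 with myricetin (edgeR adjusted p = 0.0356) and at -0.74 ± 0.57 with kaempferol (edgeR adjusted p = 0.698). Cry1 was at -1.80 ± 0.22 with myricetin (edgeR adjusted p = 0.00174) and -0.88 ± 0.21 with kaempferol (edgeR adjusted p = 0.123).

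Promoters of clock genes are shown because these genes lay apart together. In the RefSeq promoter table for GRCm38.p6, which covers 250 bases before to 50 after a start, 17 of the 20 clock genes were found. The E-box CACGTG, the site of CLOCK and BMAL1, which reads the same on both strands, was in a promoter of 5 of the 17 (Per1, Cry1, Tef, Bhlhe41 and Ciart) and of 8.09% of all 27025 genes. The D-box TTATGTAA, a site of Dbp, Tef, Hlf and Nfil3, searched on both strands, was in 1 of the 17 (Per3) and in 1.11% of all genes. AGGTCA, the core site of REV-ERB receptors, searched on both strands, was in 5 of the 17 (Arntl, Clock, Per1, Nr1d2 and Nfil3) and in 18.1% of all genes. The motifs do not overlap in the windows below, which lie before the start and run 5′ to 3′ on the gene's strand with the match in capitals.
Tef (chr15:81802522-81802575, plus strand, E-box): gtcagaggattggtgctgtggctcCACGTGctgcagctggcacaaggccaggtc
Bhlhe41 (chr6:145865544-145865597, minus strand, E-box): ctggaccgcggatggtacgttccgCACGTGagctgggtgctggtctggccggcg
Cry1 (chr10:85185085-85185138, minus strand, E-box): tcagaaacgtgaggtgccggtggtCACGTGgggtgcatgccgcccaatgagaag
Per3 (chr4:151044792-151044894, minus strand, 2 D-boxes): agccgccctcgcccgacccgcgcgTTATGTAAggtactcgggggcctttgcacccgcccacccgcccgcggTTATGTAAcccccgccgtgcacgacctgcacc
Nr1d2 (chr14:18239154-18239207, minus strand, core site): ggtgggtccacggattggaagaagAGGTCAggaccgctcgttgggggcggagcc
Genes with an E-box window lay on either side: Tef and Bhlhe41 were higher with myricetin and Cry1 lower. A match is a description of the letters in these windows.

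Rbm3, a cold-inducible RNA-binding protein gene (chromosome X, 8138975 to 8145880, minus strand), was the most even of the genes with the lowest p. It had 40.2, 42.9 and 43.4 CPM with myricetin and 26.8, 26.2 and 27.2 CPM with kaempferol. The myricetin libraries lay near the control mean of 43.2 ± 2.82 CPM, and the kaempferol libraries lay below the model range of 29.5 to 33.0 CPM. The log2 fold change was 0.66 ± 0.11 (edgeR adjusted p = 0.0713). Carmil1, a regulator of actin capping (chromosome 13, 24012481 to 24280802, plus strand), had 66.5, 63.0 and 46.1 CPM with myricetin and 25.8, 18.5 and 33.6 CPM with kaempferol, a log2 fold change of 1.17 ± 0.20 (edgeR adjusted p = 0.0713). Without kaempferol library 8 its edgeR adjusted p was 0.0135, the lowest of the edgeR alternatives, of which the highest gave 1.00. When 1 library was left out, the edgeR adjusted p was at most 0.365. The DESeq2 adjusted p was 2.55e-05. Sergef had a log2 fold change of 0.99 ± 0.19 (edgeR adjusted p = 0.145).

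Among lipid genes, the regulator Srebf1 and some sterol genes had higher levels with myricetin, while other sterol genes and some lipid droplet genes had lower ones. Of these genes, 0 passed the edgeR test. Srebf1, the transcription factor of fatty acid synthesis genes (chromosome 11, 60199084 to 60224186, minus strand), had 371, 288 and 311 CPM with myricetin and 196, 152 and 180.2 CPM with kaempferol. The groups did not overlap, and the log2 fold change was 0.88 ± 0.17 with a 95% interval of 0.52 to 1.23 (edgeR adjusted p = 0.145). Against the model it was at -0.23 ± 0.17 with myricetin (edgeR adjusted p = 0.631) and fell by 1.11 with kaempferol (edgeR adjusted p = 0.0224). The 22 genes of fatty acid and triglyceride synthesis had a median of 0.00, with 2 higher (1 without kaempferol library 3) and 0 lower at an unadjusted p under 0.05, against 2.65% and 4.66% of all genes. Fasn, the fatty acid synthase, was at 0.48 ± 0.38 and Scd1, the desaturase, at -0.15 ± 0.35, with a sign for Scd1 that turned without kaempferol library 3.

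Of the 25 cholesterol synthesis genes, 2 were higher and 0 lower at an unadjusted p under 0.05, against 2.65% and 4.66% of all genes. Without overlap of the libraries, 6 were higher and 0 lower, against 5.15% and 5.29% of all genes. Their median was 0.15, and the first count was 1 without myricetin library 8, kaempferol library 3 or kaempferol library 5. Insig1, which holds the SREBP complex in the endoplasmic reticulum, had 139, 138 and 187 CPM with myricetin and 83.5, 60.5 and 118 CPM with kaempferol, at 0.83 ± 0.31 (edgeR adjusted p = 0.578). Its libraries were separate between the groups. Sqle was too low to compare closely, with 2.80, 2.29 and 0.690 CPM with myricetin and 1.55, 0.191 and 2.10 CPM with kaempferol.

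Klb, the coreceptor of FGF15 and FGF21 signals in liver (chromosome 5, 65348411 to 65386957, plus strand), had 30.1, 38.4 and 42.9 CPM with myricetin and 14.8, 15.2 and 25.3 CPM with kaempferol. The log2 fold change was 1.01 ± 0.20 (edgeR adjusted p = 0.163), and without kaempferol library 8 the edgeR adjusted p was 0.0135. Over the edgeR alternatives that p ran from 0.0135 to 0.620, and the DESeq2 adjusted p was 0.00134. It belongs to the 14 tested genes of bile acid transport and FXR signalling, of which 3 were higher (1 without kaempferol library 3) and 0 lower at an unadjusted p under 0.05, against 2.65% and 4.66% of all genes, with a median of 0.21. Slc10a1 and Abcc2, which carry bile salts into and conjugates out of hepatocytes, were the other two, at 0.35 ± 0.16 and 0.35 ± 0.15 with overlapping libraries. Of 16 bile acid synthesis genes, 0 reached an unadjusted p under 0.05 in either direction, and the median was -0.002. Cyp7a1, the rate-limiting enzyme of bile acid synthesis, had 59.4, 47.0 and 109.6 CPM with myricetin and 41.7, 51.8 and 59.7 CPM with kaempferol, at 0.50 ± 0.62. Cyp8b1 and Cyp7b1 had intervals of -0.77 to 0.19 and -0.77 to 0.77. Abcg5, a canalicular sterol exporter, was at 0.74 ± 0.33 (edgeR adjusted p = 0.680) and Abca1 at 0.06 ± 0.11. Abcg5 belongs to a list of 14 sterol efflux and LXR target genes, with a median of -0.02. At an unadjusted p under 0.05, 1 of them was higher and 2 lower, against 2.65% and 4.66% of all genes. The lower ones were Soat1 at -0.77 ± 0.28 and Pltp at -0.52 ± 0.23, with overlapping libraries. With 1 library left out, these counts ran from 0 to 1 higher and from 0 to 3 lower.

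Plin2, the main coat protein of hepatocyte lipid droplets, had 394, 402 and 408 CPM with myricetin and 655, 731 and 441 CPM with kaempferol. The myricetin libraries were within a narrow band below all kaempferol libraries, of which library 8 was the nearest. The log2 fold change was -0.60 ± 0.17 (edgeR adjusted p = 0.460). Of 20 lipid droplet genes tested, 0 were higher and 5 lower at an unadjusted p under 0.05, against 2.65% and 4.66% of all genes. Their median was -0.16, and it was -0.0525 without kaempferol library 5 and -0.27 without myricetin library 8. The count of 5 was 3 when any 1 myricetin library was left out and 2 without kaempferol library 3. The others at that p were Plin5 (-0.50), Hilpda (-0.67), Fitm2 (-0.44) and Cidec (-1.27), of which Cidec was near the lower limit of counting at 0.801, 0.241 and 0.690 CPM with myricetin and 2.32, 1.15 and 0.738 CPM with kaempferol. Pparg was at 0.16 ± 0.20 and Cd36 at -0.36 ± 0.44. Cpt1a, the gate of fatty acid oxidation, was at -0.11 ± 0.12, and the 26 fatty acid oxidation and PPAR alpha targets had a median of 0.02.

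**Figure D2:**
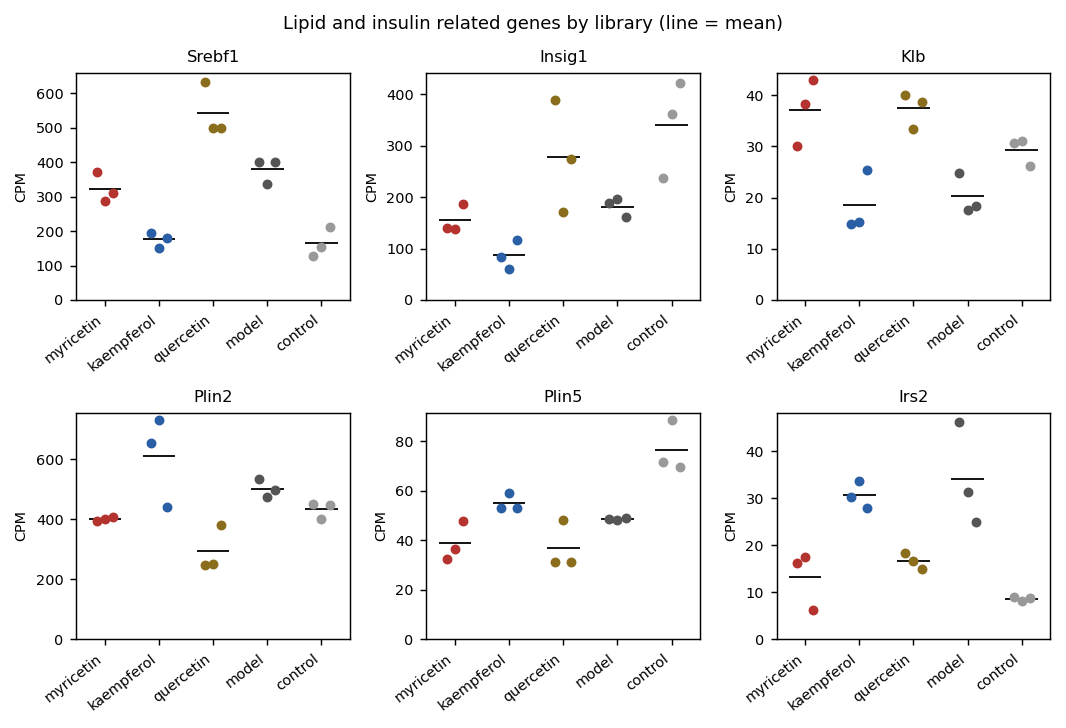
CPM of 6 lipid and insulin related genes in each of the 15 libraries, by group, with a line at the group mean and an axis that starts at 0. The 3 myricetin libraries lie above the 3 kaempferol libraries for Srebf1, Insig1 and Klb, and below them for Plin2, Plin5 and Irs2.

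Among genes that follow feeding and insulin, the fasting-high Irs2 was lower and the feeding-high Angptl8 higher with myricetin. Neither passed the edgeR test. Irs2, an insulin receptor substrate that is high in fasting liver, had 16.2, 17.6 and 6.15 CPM with myricetin and 30.3, 33.7 and 27.9 CPM with kaempferol, at -1.20 ± 0.30 (edgeR adjusted p = 0.394). Angptl8, a secreted lipase regulator that is high after feeding, had 36.8, 121 and 222 CPM with myricetin and 20.7, 13.9 and 38.9 CPM with kaempferol. Myricetin library 5 was within the kaempferol range, and the log2 fold change was 2.37 ± 0.58 (edgeR adjusted p = 0.424). Pfkfb1 was at -0.57 ± 0.16 (edgeR adjusted p = 0.460). The 21 genes of glucose and glycogen metabolism had a median of -0.06.

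Trib3, a pseudokinase of the integrated stress response, had 6.35, 10.7 and 11.1 CPM with myricetin and 3.27, 3.50 and 4.31 CPM with kaempferol, at 1.34 ± 0.28 (edgeR adjusted p = 0.189). It was higher with myricetin than in the model by 2.18 ± 0.30 (edgeR adjusted p = 0.00363) and was at 0.84 ± 0.31 with kaempferol (edgeR adjusted p = 0.279). The other 22 of the 23 stress genes tested did not reach an unadjusted p under 0.05, and the median of the list was 0.08. Fgf21, a hormone of this response, was at 0.90 ± 0.48. Lgalsl (-0.65 ± 0.13), Ift122 (-0.89 ± 0.19) and Map7d1 (-0.53 ± 0.12) were among the lowest p-values below kaempferol, with edgeR adjusted p-values of 0.163, 0.189 and 0.209. Lgalsl was lower with myricetin than in the model, at -0.90 ± 0.13 (edgeR adjusted p = 0.00535), while kaempferol was at -0.25 ± 0.13 (edgeR adjusted p = 0.470).

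Some acute phase genes had lower levels with myricetin, Saa3 most clearly, and 0 passed the edgeR test. Saa3, a serum amyloid A made by macrophages and other cells in inflammation (chromosome 7, 46711998 to 46719615, minus strand), had 7.84, 6.45 and 7.87 CPM with myricetin and 28.9, 27.2 and 19.2 CPM with kaempferol. The groups were well apart, and the myricetin libraries were within the model range of 5.58 to 8.76 CPM. The log2 fold change was -1.76 ± 0.26 (edgeR adjusted p = 0.0713), and the edgeR adjusted p was 0.0135 without kaempferol library 8. Over the edgeR alternatives it ran from 0.00527 to 0.569, and the DESeq2 adjusted p was 2.06e-07. Against the model, kaempferol was higher by 1.71 ± 0.26 (edgeR adjusted p = 0.0288) and myricetin was at -0.05 ± 0.27 (edgeR adjusted p = 0.961). Of 26 acute phase genes, 0 were higher and 6 lower at an unadjusted p under 0.05, against 2.65% and 4.66% of all genes. Their median was -0.29, and with 1 library left out it ran from -0.42 (kaempferol 8) to -0.17 (kaempferol 3). The count of 6 was 3 without myricetin library 7 and 11 without kaempferol library 8. Stat3, the transcription factor of the response, was at -0.59 ± 0.16, haptoglobin (Hp) at -0.46 ± 0.16 and Steap4 at -1.14 ± 0.29, all separate between the groups. Lcn2 and Fgg, at -1.32 ± 0.60 and -0.35 ± 0.14, overlapped.

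Of 28 interferon-induced genes tested, 0 were higher and 8 lower at an unadjusted p under 0.05, against 2.65% and 4.66% of all genes, with a median of -0.23. The count of 8 was 2 without myricetin library 8, 4 without myricetin library 7 or kaempferol library 3, and 5 without kaempferol library 8. Ifit2, an antiviral RNA-binding protein gene, had 2.97, 3.38 and 3.91 CPM with myricetin and 5.53, 5.67 and 6.93 CPM with kaempferol, at -0.82 ± 0.22 (edgeR adjusted p = 0.394). Bst2 and Cmpk2 were at -0.31 ± 0.11 and -0.42 ± 0.17. Among immediate early genes, 0 of 21 were higher and 5 lower at an unadjusted p under 0.05, against 2.65% and 4.66% of all genes. The count of 5 was 3 without any 1 library other than kaempferol 3. Egr1, which is induced within minutes of many signals, had 18.8, 9.95 and 8.39 CPM with myricetin and 40.6, 82.9 and 35.8 CPM with kaempferol, at -2.10 ± 0.75.

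Of the macrophage, B cell, and T and natural killer cell markers, 0 passed the edgeR test. At an unadjusted p under 0.05 some were lower with myricetin, and for macrophages and B cells those counts were 0 without kaempferol library 8. The summed level of the 28 macrophage markers was 654, 636 and 789 CPM in myricetin libraries 5, 7 and 8, against 851, 762 and 1442 CPM in kaempferol libraries 3, 5 and 8. Of 27 tested, 9 were lower at an unadjusted p under 0.05, against 4.66% of all genes, with a median of -0.40. Without kaempferol library 8 the count was 0 and the median -0.22. Other left-out libraries gave 1 (myricetin 5), 3 (myricetin 7) and 14 (kaempferol 5). Marco, a scavenger receptor of Kupffer cells, had 10.7, 11.8 and 18.0 CPM with myricetin and 12.3, 16.9 and 198 CPM with kaempferol, so that library 8 alone was high. Adgre1, which encodes F4/80, had 12.1, 10.5 and 17.7 CPM with myricetin and 14.8, 13.9 and 63.6 CPM with kaempferol. In whole tissue, fewer cells of a type and less RNA per cell cannot be told apart.

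For the 9 B cell markers, 5 were lower at an unadjusted p under 0.05, against 4.66% of all genes, with a median of -0.88, and without kaempferol library 8 the count was 0 and the median -0.46. The count was 2 without myricetin library 7 and 1 without myricetin library 8. Cd22, a B cell receptor regulator, had 2.52, 2.23 and 2.13 CPM with myricetin and 2.93, 3.37 and 6.36 CPM with kaempferol. The summed level of the 17 T and natural killer cell markers was 18.8, 14.7 and 16.0 CPM with myricetin and 33.8, 21.6 and 28.2 CPM with kaempferol, with every myricetin library below every kaempferol library. Of 14 tested, 0 were higher and 4 lower at an unadjusted p under 0.05, against 2.65% and 4.66% of all genes, and 8 were lower without overlap, against 5.29%. The median was -0.82. Leaving out kaempferol library 8 gave 3 lower with a median of -0.89. Gzmb and Cd3d, markers of cytotoxic and T cells, had 95% intervals of -1.61 to -0.30 and -1.74 to -0.27, from levels of at most 2.10 CPM. The part of these cell markers in the acute phase and interferon values was not tested.

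**Figure D3:**
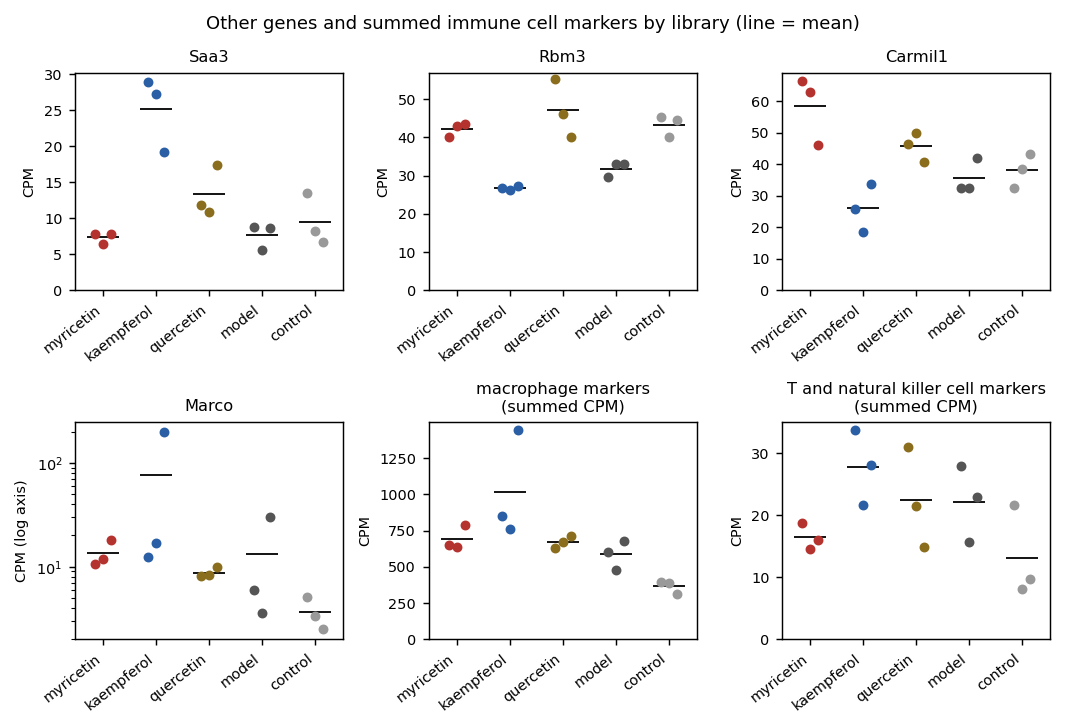
CPM of Saa3, Rbm3, Carmil1 and Marco (Marco on a log axis) and summed CPM of macrophage and of T and natural killer cell markers in each of the 15 libraries, by group, with a line at the group mean. Myricetin is apart from kaempferol for Saa3, Rbm3, Carmil1 and the T and natural killer cell sum, while kaempferol library 8 alone sets the height of Marco, at 198 CPM.

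Cell cycle genes, a list that holds inhibitors as well as proliferation markers, had a median of -0.52 over 22 tested. At an unadjusted p under 0.05, 0 were higher and 3 lower (Cdkn1a, Mki67 and Top2a), against 2.65% and 4.66% of all genes. Without overlap 9 were lower, against 5.29%. The count of 3 was 1 without myricetin library 8 or kaempferol library 5. Mki67, the Ki-67 antigen, had 2.00, 1.27 and 0.977 CPM with myricetin and 2.38, 2.80 and 2.72 CPM with kaempferol, and Cdkn1a, the cell cycle inhibitor p21, had a 95% interval of -1.58 to -0.42 with separate libraries. All 21 stellate and matrix markers tested had a negative fold change with a median of -0.44, 4 were lower at an unadjusted p under 0.05, against 4.66% of all genes, and 0 were separate between the groups. The count of 4 was 14 without myricetin library 5, 11 without kaempferol library 5 and 2 without any 1 of the others. Over all genes, those lower at that p numbered 406 to 815 with 1 library left out. The list median ran from -0.73 (without myricetin 5) to -0.19 (without kaempferol 3). Myricetin library 5 had a sum of 586 CPM, against 344 and 315 CPM in the other myricetin libraries and 657, 355 and 607 CPM with kaempferol. The 6 erythroid markers had a median of -0.69 with overlapping libraries, and it ran from -1.04 without kaempferol library 3 to -0.36 without kaempferol library 8. The 7 female-biased genes tested had a median of 0.53, also with overlap, and the median was -0.0189 without myricetin library 8 and 0.33 without kaempferol library 5. Cyp4a14 among them averaged 140.3 ± 124 CPM with myricetin and 59.6 ± 33.0 CPM with kaempferol (SD, n = 3 each). Its libraries had 5.95, 250 and 165 CPM with myricetin and 82.3, 74.7 and 21.7 CPM with kaempferol. Myricetin library 5 thus lay below every kaempferol library. Pancreatic markers summed to at most 14.1 CPM and skeletal muscle markers to at most 0.919 CPM in the 6 libraries.

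**Figure D4:**
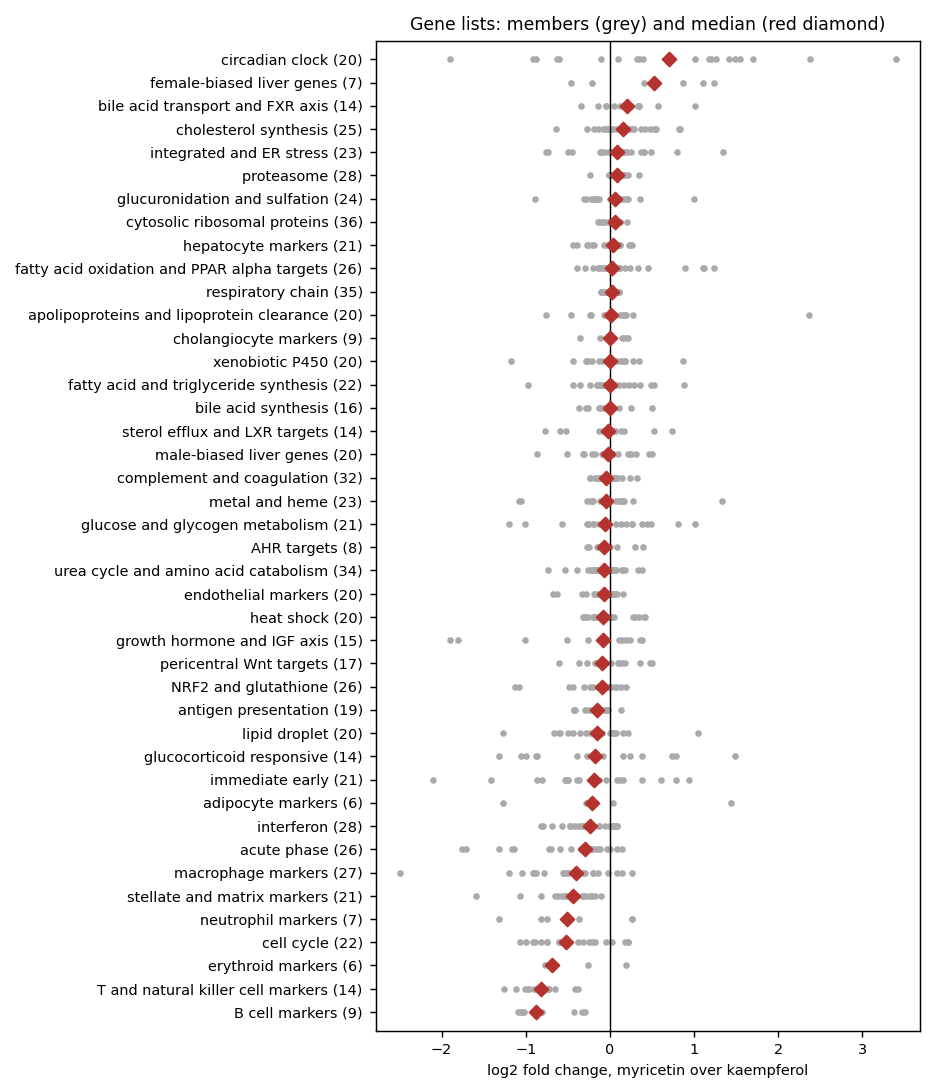
Log2 fold change of myricetin over kaempferol for the tested members of 42 gene lists (grey points) with the list median (red diamond), number tested in brackets, sorted by median. The circadian clock is at the top with a median of 0.70 and T and natural killer cell and B cell markers are at the bottom, at -0.82 and -0.88, while most lists sit near 0.

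For several genes that a flavonoid might be examined for, the intervals included 0, and they give the range left by these libraries. Cyp1a1 and Cyp1a2, targets of the aryl hydrocarbon receptor, were at -0.0009 and -0.27, with intervals of -0.63 to 0.63 and -0.62 to 0.08. Nqo1, a target of NRF2, had an interval of -0.41 to 0.58. Of 26 genes of NRF2 and glutathione, 0 were higher and 1 lower at an unadjusted p under 0.05, against 2.65% and 4.66% of all genes. Their median was -0.10, 20 had a negative fold change, and 3 were lower without overlap, against 5.29% of all genes. For the 36 cytosolic ribosomal proteins and 35 respiratory chain genes, the counts at that p were 0 in both directions, with medians of 0.06 and 0.02. The signs of Cyp1a1, Cyp7b1, Nqo1, Abca1, Cpt1a, Pparg and Scd1 turned under at least 1 alternative. A p above the threshold does not show that the groups are alike.

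**Figure D5:**
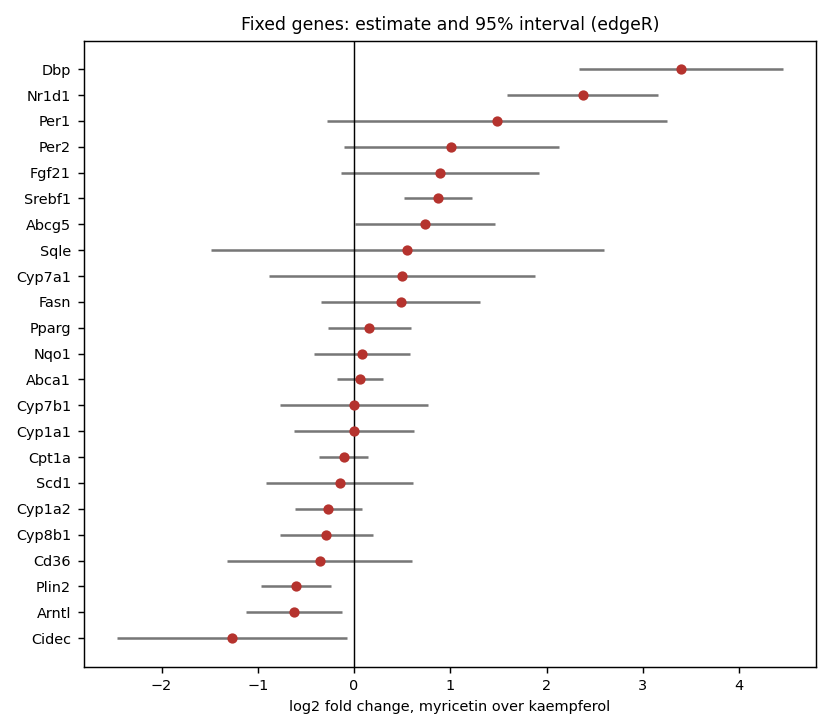
Estimated log2 fold change of myricetin over kaempferol (points) with approximate 95% intervals (lines) for 23 genes given whatever their result. Dbp and Nr1d1 lie furthest above 0. Srebf1 and Abcg5 lie above 0, and Plin2, Arntl and Cidec below it, with intervals that do not reach 0, narrowly so for Abcg5 and Cidec. Sqle has the widest interval.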

How the data were processed

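Per the labels, RNA of whole mouse liver was sequenced in 15 libraries, 3 per group. Per the submitters' processing notes, the build was GRCm38.p6 and the tools included RSEM 1.3.1, DESeq2 1.4.5, HISAT2 2.1.0 and Bowtie2 2.3.4.3, whose roles and order are not given in the sources used here. The authors deposited 1 expected count per gene and library, a read count without scaling per the file headers, for 16809 genes. Not whole were 5.37% of these values, and they were rounded. Strand is not given in the sources used here, so overlapping genes may share reads, and reads of near-identical genes (Mup, Cyp4a, Hba, Saa) were divided by the authors' counting.

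The filterByExpr rule kept 12658 genes. They were scaled with TMM and fitted with robust quasi-likelihood in edgeR 4.0.16 (R 4.3.3) over all 15 libraries, with 10 residual degrees of freedom, and tested 2-sided with Benjamini-Hochberg adjustment at 0.05. Standard errors were derived from the F statistic, so the 95% intervals are approximate. CPM use TMM-scaled totals. The common biological coefficient of variation was 0.155. Alternatives were DESeq2 1.42.0, RLE factors, no filter, a fit of 6 libraries, a block and leaving out each library. The fit was tested on simulated data.

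The 45 gene lists and the fixed genes were chosen with earlier results of these data known. Named genes are 23 fixed genes, the 6 lowest p-values in each direction, up to 4 members of the 3 highest and 3 lowest lists, and list members at an unadjusted p under 0.05, which were chosen after their values were seen. Some genes that meet this rule are not reported here. Lists are described by counts and medians, with no set test. Groups of 3 allowed no search for outlying samples. The labels name no batch.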

Additional observations from a re-analysis of the deposited data

How the results depend on the processing

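Genes called by edgeR numbered 0 with TMM factors, with RLE factors and with no filter on low counts. The count was 36 with DESeq2 (19 higher and 17 lower with myricetin), 2 with only the myricetin and kaempferol libraries in the fit (1 higher, 1 lower), and 0 to 13 with 1 library left out (0 to 6 higher, 0 to 7 lower). At an unadjusted p under 0.05, leaving out a library gave 200 to 477 genes higher and 406 to 815 lower. With the library number as a replicate block, 1 gene was called (1 higher, 0 lower), Nr1d1 at an edgeR adjusted p of 0.0304, and the unadjusted counts were 164 higher and 362 lower. The numbers were not taken as pairing the samples: over 14 same-number pairs the correlation of deviations from group means ran from -0.238 to 0.0978, at -0.126 for myricetin 5 with kaempferol 5 and -0.0888 for myricetin 8 with kaempferol 8. Of 107 named genes, 100 kept their sign under all 11 alternatives. The sign of Cyp1a1 turned with DESeq2 (0.000521), RLE factors (0.000667), no filter (0.00199) and the smaller fit (0.00338), that of Cyp7b1 with no filter (0.00132) and the smaller fit (0.00232), and that of Scd1 with the block (0.28). With 1 library left out, the log2 fold changes ran from -0.15 to 0.21 for Cyp1a1, -0.14 to 0.14 for Cyp7b1, -0.34 to 0.30 for Scd1, -0.0461 to 0.16 for Abca1, -0.0673 to 0.17 for Nqo1, -0.18 to 0.000428 for Cpt1a and -0.0288 to 0.34 for Pparg. The cause was not tested. Leaving out a library leaves its group with 2, and the spread was then estimated over the other groups as well. Counts limit genes under about 1 CPM, such as Cidec and Sqle.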
